A study of Mus musculus with 10 samples.

Results

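Genes of peroxisomal oxidation and of the nuclear receptor PPAR-alpha were examined in the livers of mice with 1 inactivated copy of Tgfbr2, which encodes the type II receptor for TGF-beta. The 9 genes are Ppara, Fabp1, Ehhadh, Acaa1b, Hsd17b4, Acot1, Hao1, Hao2 and Cat. They were chosen by name with earlier results of these data known, among them the ratios to the pool and the differences between the groups given here, so those values are a description and carry no test. Matching the platform's gene symbols found 8 of the 9 genes, each with 1 probe, among 16383 genes. Acaa1b was not analysed here.

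The study hybridised liver RNA of 10 mice to 2-colour arrays against a common pool made from the livers of 6 wild-type mice. The groups are 6 Tgfbr2+/- mice and 4 wild-type littermates, all on a chow diet. The titles of the heterozygous samples name males, those of the wild-type samples state no sex, and strain, age and the kind of mutant allele are not given in the labels. Values are log2 ratios over the pool, so a value of 0 is the level of the pool. Differences are Tgfbr2+/- minus wild type with the standard error (SE) of the fit. Such ratios carry no level of a gene relative to another gene, nor a check of the tissue against its markers. In a bulk sample fewer cells of a type and less RNA per cell cannot be told apart.

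The direction of the ratio, mouse over pool, is likely, since the titles put the pool first and the Tgfbr2 probe is low in heterozygotes, and "higher" and "lower" rest on it. On the first of the 2 Tgfbr2 probes, 5 of 6 heterozygous libraries (-1.11 to -0.60) lay under the wild-type range of -0.29 to 0.64, which helped to set the direction, and the library labelled Tgfbr2+/- replicate 4 was at 0.20, which goes against its label. For the second Tgfbr2 probe the groups differed by -0.07 ± 0.09 (SE). Wild-type replicate 1 and Tgfbr2+/- replicate 5 correlated at r = -0.32 over all probes, so the direction of either column is not settled. As deposited, the first Tgfbr2 probe was at 0.42 in wild-type replicate 1 and -0.86 in Tgfbr2+/- replicate 5, within the range of the other libraries of each group (-0.29 to 0.64 and -1.11 to 0.20). Turned in sign, both values would lie outside those ranges. Values with these 2 columns turned in sign are given beside many of the results they change. So are values without the 3 doubted libraries, which are these 2 and the one labelled Tgfbr2+/- replicate 4.

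Peroxisomes shorten very-long-chain and branched fatty acids and oxidise glycolate and other 2-hydroxy acids, with hydrogen peroxide as the by-product that catalase removes. In liver the first enzymes of the inducible peroxisomal pathway are classical targets of PPAR-alpha, a receptor for fatty acids and fibrate drugs. It binds DNA with its partner RXR at a direct repeat of a core element spaced by a single base. Fasting is the best known natural setting in which PPAR-alpha drives these genes in hepatocytes.

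The upstream sequences of Fabp1, Cat and Hao2 are shown here because Fabp1 and Hao2 had the largest differences between the groups among the 8 genes, in opposite directions, and Cat is the other member whose window holds a match to the receptor's motif. Each run gives the 250 bases before the gene's start, 5′ to 3′ on the gene's strand, from RefSeq's GRCm38.p6, and capitals mark the match. Fabp1 lies at chr6:71199629-71199878 (plus strand), Cat at chr2:103485154-103485403 (minus strand) and Hao2 at chr3:98893231-98893480 (minus strand).

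Fabp1: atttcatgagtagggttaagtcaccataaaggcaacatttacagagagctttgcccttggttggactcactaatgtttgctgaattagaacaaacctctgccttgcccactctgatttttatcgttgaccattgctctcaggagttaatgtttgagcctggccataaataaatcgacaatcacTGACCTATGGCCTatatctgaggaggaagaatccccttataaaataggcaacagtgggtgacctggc

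Cat: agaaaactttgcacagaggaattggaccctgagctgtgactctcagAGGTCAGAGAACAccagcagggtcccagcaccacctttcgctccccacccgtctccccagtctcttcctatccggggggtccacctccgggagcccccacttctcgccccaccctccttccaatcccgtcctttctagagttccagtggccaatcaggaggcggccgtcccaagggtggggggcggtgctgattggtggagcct

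Hao2: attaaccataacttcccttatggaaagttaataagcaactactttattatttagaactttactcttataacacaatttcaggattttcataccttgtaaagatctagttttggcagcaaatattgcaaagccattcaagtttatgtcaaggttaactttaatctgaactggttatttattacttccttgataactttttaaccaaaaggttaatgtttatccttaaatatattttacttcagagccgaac

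The motif searched was AGGTCANAGGTCA, on both strands and with at most 2 of its 12 fixed bases different. A match in the 250 bases was present in 3.24% of 32851 promoters. The table held a promoter for 8 of the 9 genes, that of Hsd17b4 excepted, and 2 of these 8 had a match. In Fabp1 the match differed from the motif at 1 base and spanned positions -67 to -55 on the opposite strand, where TGACCTATGGCCT reads as AGGCCATAGGTCA. Matches with at most 1 difference were found in 0.484% of all promoters. In Cat the match AGGTCAGAGAACA differed at 2 bases and spanned positions -204 to -192. The windows of Ppara, Ehhadh, Acot1, Hao1, Hao2 and Acaa1b held no match, which says only that these letters are not in these windows. The core AGGTCA alone, or TGACCT on the other strand, was in 14% of all promoters and, among these 8, in those of Fabp1 and Cat. The Hao2 window was 28.4% G and C and that of Ppara 76.4%, against a median of 52.4% over all promoters.

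Hao2 lay below the pool in every library, and further below in heterozygous liver, while Fabp1 and Ppara lay above the pool in every heterozygous library, with all columns as deposited. Hao2, a peroxisomal oxidase of longer 2-hydroxy acids, averaged -1.02 ± 0.24 (SD, n = 6) in Tgfbr2+/- liver, 2.02-fold below the pool, and -0.48 ± 0.41 (SD, n = 4) in wild type. Fabp1, the abundant fatty acid binding protein of the hepatocyte cytosol, averaged 0.48 ± 0.38 (SD, n = 6) against -0.05 ± 0.20 (SD, n = 4). Ppara itself averaged 0.06 ± 0.06 (SD, n = 6) against -0.12 ± 0.12 (SD, n = 4). For the other 5 genes the difference between the group means was less than the larger of the 2 groups' SDs.

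Of 16383 genes, limma passed 0 (0%) as different between the groups at an adjusted p under 0.05, and 0 of the 8. An unadjusted p under 0.05 was reached by 908 genes (5.54%), which include Ppara, Fabp1 and Hao2. Against the pool, 2 genes (0.0122%) passed in heterozygous liver, Hao2 and Zmiz1, and 0 (0%) in wild type, where 678 (4.14%) had an unadjusted p under 0.05, Ppara and Hao2 among them. Since these contrasts chose the genes, nothing is read from the counts. The values of the 2 groups did not overlap for 177 genes (1.08%) and for 0 of the 8. The difference was beyond 0.5 in either direction for 107 genes (0.653%), including Fabp1 and Hao2.

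**Figure D1:**
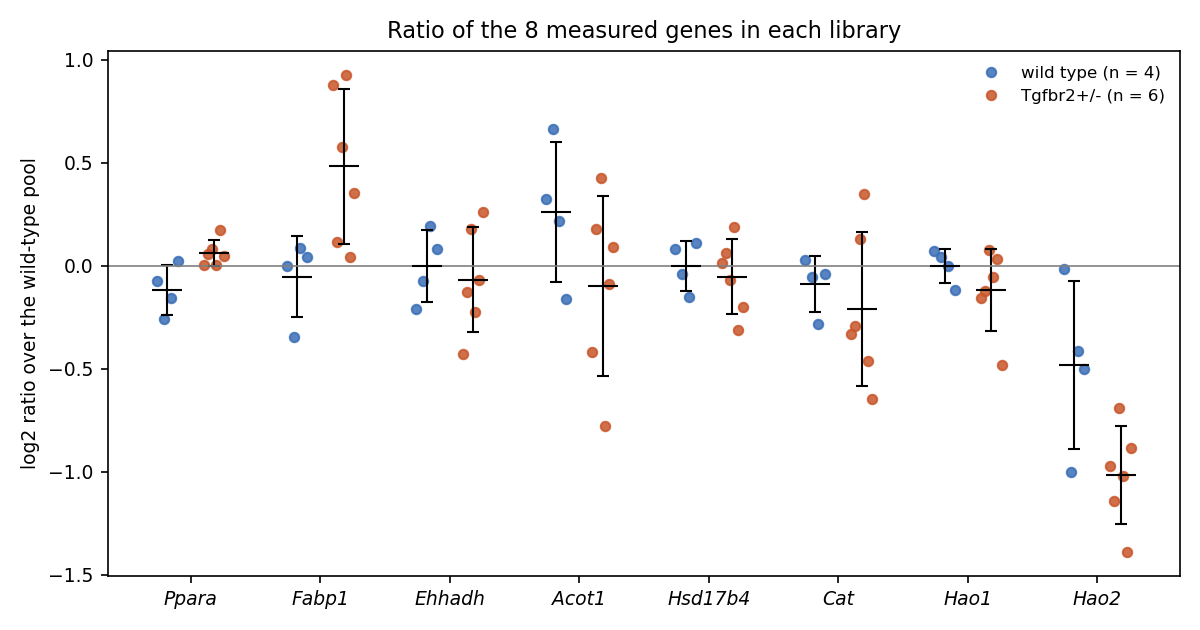
Log2 ratio over the wild-type pool (y axis) of the 8 measured genes in each library, wild type in blue and Tgfbr2+/- in orange, with bars for the group mean ± SD. Hao2 is below 0 in all 10 libraries, and Fabp1 and Ppara are above 0 in all 6 heterozygous ones.

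Among the receptor and its ligand carrier, Ppara was at -0.08, -0.26, -0.16 and 0.02 in wild-type replicates 1 to 4. In heterozygous libraries it lay between 0.002 and 0.17 with a median of 0.05. Wild-type replicate 4 was the library that overlapped, and 4 of 6 heterozygous libraries exceeded it. The difference was 0.18 ± 0.06 (SE), or 1.13-fold. It was 0.08 with the signs of wild-type replicate 1 and Tgfbr2+/- replicate 5 both turned. It was positive under all 20 alternatives tried. With the sign of replicate 5 turned, 1 heterozygous library would lie below the pool and their mean would be 0.003.

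Fabp1 carries fatty acids to the nucleus, where they can reach PPAR-alpha, and is itself a known target of the receptor. Its wild-type values were 0.001, -0.35, 0.09 and 0.04 for replicates 1 to 4. The heterozygous libraries ran from 0.04 to 0.93 with a median of 0.46, and 5 of 6 exceeded all wild-type libraries. They were spread unevenly: replicate 1 (0.88), replicate 3 (0.58) and the library labelled replicate 4 (0.93) were high, replicate 6 was at 0.35, replicate 2 was at 0.12, and replicate 5 (0.04) lay inside the wild-type range. The difference was 0.54 ± 0.18 (SE), or 1.45-fold, and ranged from 0.44 to 0.68 over the alternatives. It was the 36th highest of 16383 genes. All 6 heterozygous libraries lay above the pool for 901 genes (5.5%), among them Fabp1 and Ppara. With the sign of replicate 5 turned, Fabp1 too was above the pool in 5 of the 6.

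Among the enzymes of acyl-CoA metabolism, Ehhadh, Acot1 and Hsd17b4 had negative mean differences, each smaller than the larger of the groups' SDs. Ehhadh, the L-bifunctional enzyme of peroxisomal beta-oxidation and a standard marker of PPAR-alpha activity, was at -0.21, -0.07, 0.19 and 0.08 in wild-type replicates 1 to 4. Heterozygous values ran from -0.43 to 0.26 with a median of -0.10, and contained the wild-type range. The difference was -0.07 ± 0.13 (SE), and with 1 library left out it ran from -0.14 (without wild-type replicate 1) to 0.005 (without Tgfbr2+/- replicate 1). Leaving out wild-type replicate 3 or 4 or the library labelled Tgfbr2+/- replicate 4 gave -0.002, -0.04 and -0.04, and leaving out Tgfbr2+/- replicate 3 or 6 gave -0.12 and -0.13. Turning the sign of wild-type replicate 1 gave -0.17.

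Acot1, a cytosolic acyl-CoA thioesterase that is strongly induced by fibrates, was at 0.32, 0.66, 0.22 and -0.16 in wild-type replicates 1 to 4. Heterozygous values ran from -0.78 to 0.43 with a median of -0.0002. The lowest were the library labelled replicate 4 and replicate 1 (-0.42), which had the highest Fabp1 values. The difference was -0.36 ± 0.22 (SE). It was -0.22 without the library labelled Tgfbr2+/- replicate 4, -0.23 without wild-type replicate 2, -0.20 with wild-type replicate 1 turned in sign and -0.17 without the 3 doubted libraries. Acot1 has close paralogs in a gene cluster, and how far its probe tells them apart was not tested. Their probes differed by -0.07 ± 0.05 (SE) for Acot2, -0.19 ± 0.22 for Acot3, -0.01 ± 0.11 for Acot4, -0.04 ± 0.07 for Acot5 and -0.19 ± 0.11 for Acot6. All of these were smaller in size than the difference of Acot1.

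Hsd17b4, the D-bifunctional enzyme that handles branched and very-long-chain substrates, was at 0.08, -0.04, -0.15 and 0.11 in wild-type replicates 1 to 4. In heterozygous liver it ran from -0.31 to 0.19 with a median of -0.03. The difference of -0.05 ± 0.09 (SE) became 0.05 with Tgfbr2+/- replicate 5 turned in sign and -0.01 with wild-type replicate 1 turned. It was -0.001 without Tgfbr2+/- replicate 5, -0.02 without wild-type replicate 4 or Tgfbr2+/- replicate 6, and -0.03 without wild-type replicate 1. It was -0.10 without wild-type replicate 3 or the library labelled Tgfbr2+/- replicate 4. The thiolase Acaa1a, which catalyses the step after both bifunctional enzymes, differed by -0.01 ± 0.09 (SE, limma adjusted p = 0.993).

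Cat encodes catalase. It was at 0.03, -0.05, -0.28 and -0.04 in wild-type replicates 1 to 4. The heterozygous libraries spread from -0.65 to 0.35 with a median of -0.31. In 4 of them it was under all wild-type libraries and in the other 2, replicate 3 and the library labelled replicate 4, above all. The difference was -0.12 ± 0.17 (SE). It was -0.03 without Tgfbr2+/- replicate 6, -0.07 without replicate 5, -0.23 without the library labelled replicate 4, -0.19 without Tgfbr2+/- replicate 3 or wild-type replicate 3, and 0.03 with the sign of replicate 5 turned.

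Of the hydroxyacid oxidases, Hao1 lay near the pool in wild-type liver and Hao2 below it. Hao1, the glycolate oxidase of liver peroxisomes, was at 0.07, 0.04, -0.001 and -0.12 in wild-type replicates 1 to 4. In heterozygous liver it ran from -0.48 to 0.07 with a median of -0.09. Its difference was -0.12 ± 0.10 (SE), and -0.05 without Tgfbr2+/- replicate 6, the lowest library. Hao1 lay within 0.12 of the pool in all 4 wild-type libraries.

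Hao2 was at -0.01, -1.00, -0.41 and -0.50 in wild-type replicates 1 to 4. Tgfbr2+/- replicates 1 to 6 gave -0.97, -1.14, -0.69, -1.02, -1.39 and -0.89. Wild-type replicate 2 lay within the heterozygous range, and 3 of 6 heterozygous libraries were below all wild-type ones. The difference was -0.53 ± 0.17 (SE), or 1.45-fold lower. All 10 libraries were below the pool for 48 genes (0.293%), of which Hao2 was the 1 member. In heterozygous liver 15 of 16383 genes had a mean further below the pool, and 22 with the sign of Tgfbr2+/- replicate 5 turned.

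The size of the Hao2 difference rests on a few libraries. It was -0.38 without wild-type replicate 1, which was at the level of the pool, and -0.71 without wild-type replicate 2. It was -0.28 without the 3 doubted libraries. With the sign of Tgfbr2+/- replicate 5 turned, that library would stand at 1.39 while the other 9 stayed below the pool. The difference would then be -0.07 ± 0.45 (SE) and the heterozygous mean -0.55. Hao2 was among the genes that limma passed against the pool in heterozygous liver with all libraries. It was no longer among them with that sign turned, without the 3 doubted libraries, or without any 1 of wild-type replicate 3, Tgfbr2+/- replicates 1, 2, 5 and 6 and the library labelled Tgfbr2+/- replicate 4. In these cases of libraries left out the heterozygous mean itself stayed between -1.04 and -0.92.

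As a set the 8 genes had 2 positive and 6 negative differences, with a median of -0.09, beside 8619 positive and 7764 negative differences and a median of 0.004 over all genes. With Tgfbr2+/- replicate 5 turned in sign the split was 4 to 4 and the median -0.005, and with a replicate block it was 4 to 4 and -0.008. Without Tgfbr2+/- replicate 6 the median was -0.04. Within groups the 8 genes varied more than most: their SDs around the group means had a median of 0.27 against 0.11 over all genes. Acot1 (0.40, above 98.3% of genes), Fabp1 (0.32), Hao2 (0.31) and Cat (0.31) varied most, and Ppara (0.09) was the gene below the median of all genes.

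Other genes of the pathway were taken from 5 lists written from general knowledge of the pathway, with earlier results of these data known. None of their genes passed at an adjusted p under 0.05 by limma. Of their 137 entries, which are 134 distinct genes, 15 (10.9%) had an unadjusted p under 0.05, beside 5.54% of all genes. Since earlier results were known when the lists were written, nothing is read from this share. Other PPAR-alpha targets had 35 negative and 10 positive differences among 45 measured genes, with a median of -0.08. The lowest were the lipid droplet genes Cidec (-1.12 ± 0.61, SE, limma adjusted p = 0.917) and Plin4 (-1.10 ± 0.46, adjusted p = 0.857). The highest were the fatty acid hydroxylase Cyp4a12a (0.32 ± 0.21, adjusted p = 0.919) and the desaturase Fads2 (0.10 ± 0.16, adjusted p = 0.955). The microsomal hydroxylases Cyp4a10 and Cyp4a14, also in this list, differed by -0.29 ± 0.11 and -0.48 ± 0.12. The split was 31 negative and 14 positive without the 3 doubted libraries, and 23 and 22 with the signs of wild-type replicate 1 and Tgfbr2+/- replicate 5 both turned (median -0.0008).

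Other peroxisomal enzymes were split 28 negative to 18 positive among 46 measured genes, with a median of -0.01. The transporters Abcd4 (-0.54 ± 0.16, SE, limma adjusted p = 0.650) and Abcd2 (-0.42 ± 0.40, adjusted p = 0.934) were lowest. Neither is an enzyme of the pathway, and Abcd4 is mainly lysosomal. The coenzyme A hydrolase Nudt7 (0.57 ± 0.21, adjusted p = 0.797) and the racemase Amacr (0.23 ± 0.11, adjusted p = 0.917) were highest. This list was 19 negative to 27 positive, with a median of 0.02, when both columns were turned.

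The list of peroxins, the proteins that build peroxisomes, had 11 negative and 3 positive differences among 14 measured genes and a median of -0.05. It counts Pex5l, a relative of Pex5 known mainly for its role in neurons. Its genes all had small differences, from Pex11a (-0.18 ± 0.13, SE, limma adjusted p = 0.920) and Pex5l (-0.15 ± 0.14, adjusted p = 0.932) to Pex6 (0.03 ± 0.08, adjusted p = 0.981) and Pex5 (0.05 ± 0.05, adjusted p = 0.934). Without wild-type replicate 2 the split was 7 to 7. With both columns turned 8 of the 14 were positive, with a median of 0.02.

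The list of PPAR-alpha partners and coregulators had 13 negative and 9 positive differences among 22 measured genes, with a median of -0.04. It also holds enzymes of lipid metabolism that are neither: Pnpla2 (-0.35), Acaca (-0.32), Fasn (-0.20), Lipe (0.01) and Fads1. Lpin1, a coactivator that is also a phosphatidate phosphatase, was at -1.25 ± 0.61 (SE, limma adjusted p = 0.917) and the coactivator Ppargc1a at -0.36 ± 0.20 (adjusted p = 0.917). Fads1 (0.13 ± 0.09, adjusted p = 0.920) and Pparg (0.11 ± 0.13, adjusted p = 0.936) were highest. Enzymes of glyoxylate and hydrogen peroxide metabolism were split 7 negative to 3 positive among 10 measured genes, with a median of -0.07. Agxt, which removes the glyoxylate that Hao1 makes, was at -0.19 ± 0.10 (adjusted p = 0.917) and Glyctk at -0.17 ± 0.09 (adjusted p = 0.917). Txnrd1 (0.08 ± 0.05, adjusted p = 0.919) and Prdx2 (0.08 ± 0.04, adjusted p = 0.917) were highest. This list was split 5 to 5 with Tgfbr2+/- replicate 5 turned in sign.

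**Figure D2:**
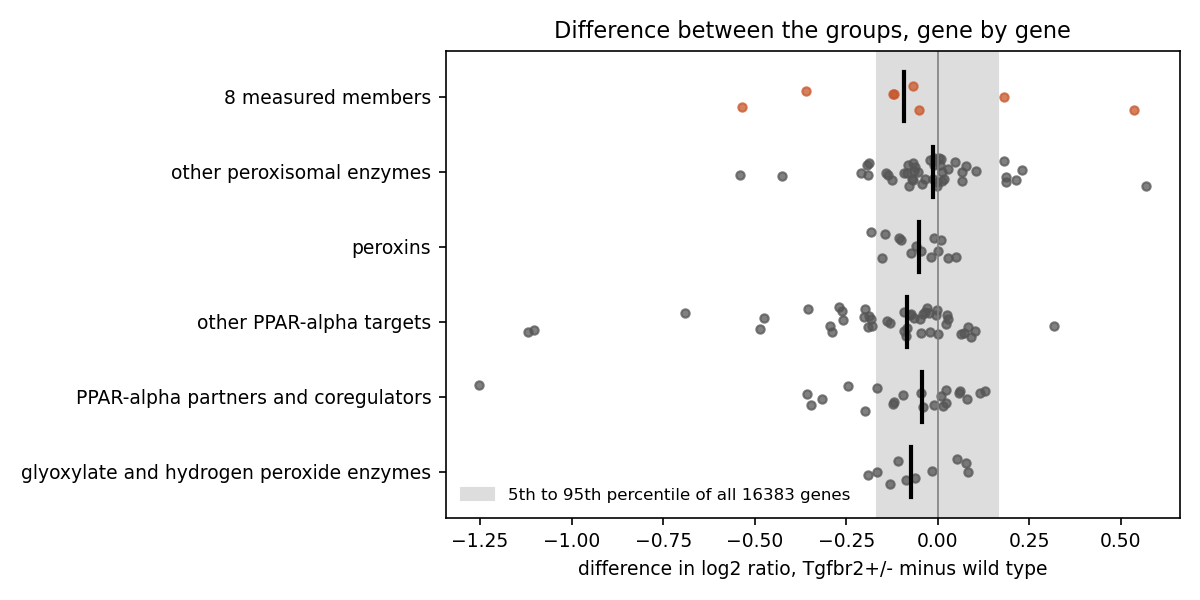
Difference in log2 ratio, Tgfbr2+/- minus wild type (x axis), of the 8 measured genes in orange and of the genes in 5 pathway lists in grey, with a black bar at each median and a shaded band from the 5th to the 95th percentile of all genes (-0.17 to 0.16). Most genes of each list lie inside the band, which by definition leaves out only the lowest 5% and highest 5% of all genes. In every list but that of peroxins, a larger share lies outside it than of all genes. The lists were written with earlier results of these data known. Of the 8 measured genes, Ppara, Fabp1, Acot1 and Hao2 lie outside it. The other PPAR-alpha targets outside the band lie on its low side, Cyp4a12a excepted. The medians run from -0.09 to -0.01.

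Lists of other cell types and states are given beside these values, and none of their genes passed by limma (lowest adjusted p = 0.115). They share genes with the pathway lists and are not separate from them. Shared are, among others, Abcd2, Acot3, Cyp4a10 and Cyp4a14 (female-biased), Nudt7 and Cyp4a12a (male-biased), and Cidec, Lpin1 and Ppargc1a (fasting-induced). Female-biased liver genes had 21 negative and 1 positive differences among 22 measured genes, with a median of -0.33. Their mean ratio was -0.32 to 0.11 in wild-type and -0.73 to -0.14 in heterozygous libraries. The split was 18 to 4 (median -0.17) with Tgfbr2+/- replicate 5 turned, 16 to 6 (median -0.13) with both columns turned and 16 to 6 (median -0.22) without the 3 doubted libraries. Male-biased liver genes had 15 positive and 4 negative differences among 19 (means of -0.48 to -0.26 and -0.35 to 0.48), with a median of 0.20. With both columns turned the split was 10 to 9 (median 0.07), and without the 3 doubted libraries 16 to 3 (median 0.10). The means of the male-biased list are pulled down by Moxd1, at -4.84 ± 0.24 (SD, n = 4) in wild type and -1.66 ± 2.84 (SD, n = 6) in heterozygotes. The median ratio over that list was -0.19 to 0.02 in wild-type and -0.06 to 0.37 in heterozygous libraries. Markers of Kupffer cells and other macrophages had 17 positive and 2 negative differences among 19 (means of -0.22 to -0.15 and -0.02 to 0.25, with no overlap as deposited). Turning wild-type replicate 1 would widen the wild-type range to 0.16, and turning Tgfbr2+/- replicate 5 the heterozygous range to -0.20, so that the groups overlap. Fasting-induced genes had 12 negative and 5 positive differences among 17 (means of -0.41 to 0.28 and -0.38 to -0.03). Hepatocyte markers had 9 negative and 7 positive differences among 16 (means of -0.09 to 0.05 and -0.10 to 0.0001). Since the titles of the wild-type samples state no sex, a difference in sex between the groups could not be told apart from genotype. The part of these lists in the values of the 8 genes was not tested.

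**Figure D3:**
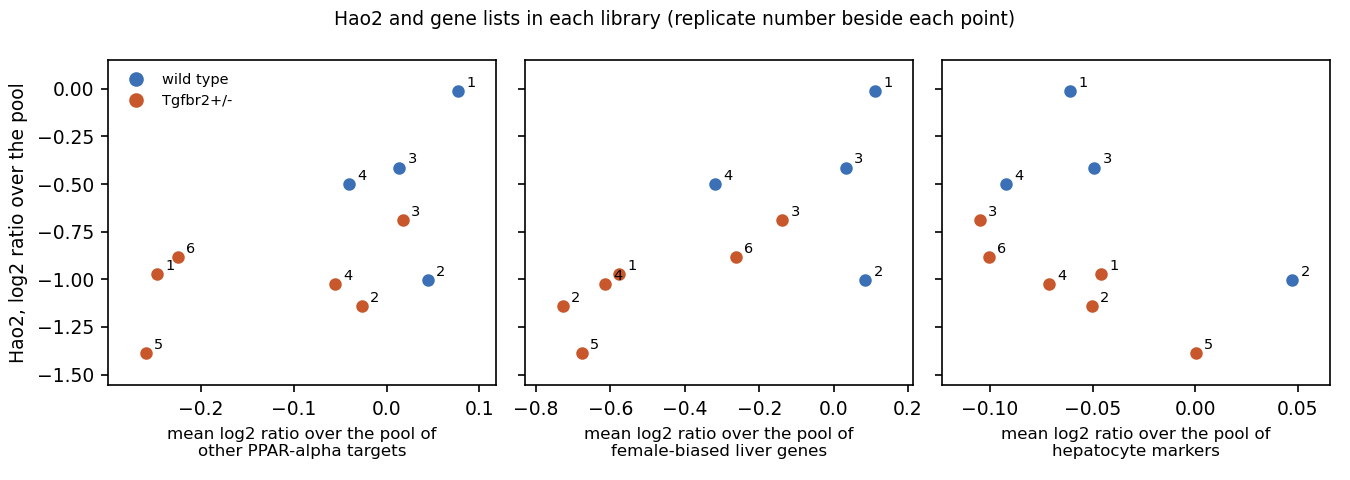
Hao2 (y axis, log2 ratio over the pool) against the mean log2 ratio of 3 gene lists (x axes) in each of the 10 libraries, labelled by replicate number, wild type in blue and Tgfbr2+/- in orange. Wild-type replicate 2 combines a Hao2 ratio of -1.00 with list means of 0.04 for other PPAR-alpha targets, 0.08 for female-biased genes and 0.05 for hepatocyte markers. The highest Hao2 ratio (-0.01, wild-type replicate 1) goes with a female-biased mean of 0.11. The lowest (-1.39, Tgfbr2+/- replicate 5, as deposited) goes with one of -0.68. The relation between Hao2 and these lists was not tested.

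How the 8 genes varied together was examined on deviations from the group means over the 10 libraries, which do not depend on the difference between the groups. Pearson's r of the 28 pairs ran from -0.65 to 0.72 with a median of 0.01, and 14 pairs were positive. None passed after Benjamini-Hochberg adjustment over the 28 pairs (lowest adjusted p = 0.739, two-sided exact permutation within groups). The highest was that of Hsd17b4 and Cat (r = 0.72, exact permutation p = 0.05, adjusted p = 0.739; Spearman's rho = 0.71, exact permutation p = 0.0426, adjusted p = 0.968), and r was 0.48 without the 2 libraries farthest from the median of Hsd17b4. The lowest was that of Fabp1 and Acot1 (r = -0.65, exact permutation p = 0.0770, adjusted p = 0.739; Spearman's rho = -0.65, exact permutation p = 0.0692, adjusted p = 0.968), and r was -0.75 without the 2 libraries farthest from the median of Fabp1. Ppara correlated with Ehhadh at r = 0.22 (exact permutation p = 0.510, adjusted p = 0.908; Spearman's rho = 0.31, exact permutation p = 0.390, adjusted p = 1) and at 0.14 without 2 libraries. Hao1 and Hao2, related in sequence and reaction, were at r = -0.07 (exact permutation p = 0.826, adjusted p = 0.963; Spearman's rho = 0.09, exact permutation p = 0.824, adjusted p = 1) and at -0.20 without 2 libraries. With the sign of Tgfbr2+/- replicate 5 turned, r was 0.80 for Hsd17b4 with Cat and -0.70 for Fabp1 with Acot1. It was then 0.06 for Ppara with Ehhadh and 0.26 for Hao1 with Hao2. The same turn took Fabp1 with Hao2 from 0.53 to -0.45, and Ppara with Fabp1 from -0.19 to 0.45. No pair passed with that sign turned (lowest adjusted p = 0.364, exact permutation).

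**Figure D4:**
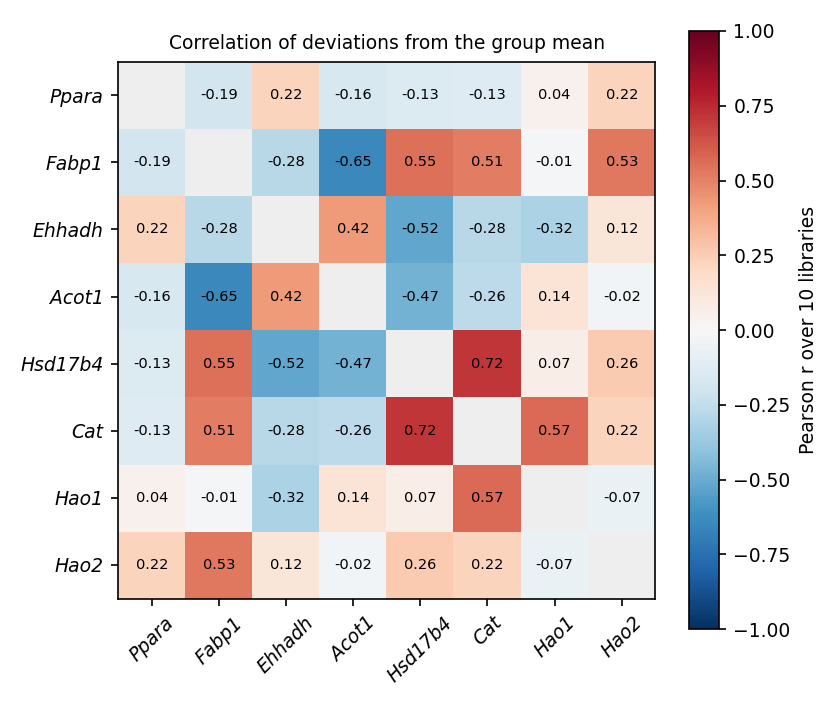
Pearson's r between each pair of the 8 genes over 10 libraries, after removal of the group means, on a colour scale from -1 to 1. All columns are as deposited. Positive and negative values are equally common, and the most extreme pairs are Hsd17b4 with Cat (0.72) and Fabp1 with Acot1 (-0.65).

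The genes whose deviations were most like those of Hao2 over the 10 libraries were Mettl3 (r = 0.99), Dram2 (0.98) and Cops2 (0.96), of 30 genes with r above 0.9. Those most like Ehhadh were Hsph1 (0.97), Ccdc127 (0.96) and Ubfd1 (0.95), of 17 genes above 0.9. Those most like Fabp1 were Robo1 (0.93), Vps25 (0.92) and Olfr846 (0.91), of 6 genes above 0.9. None of these 9 genes is in the peroxisomal or PPAR-alpha lists. They were taken from the top of 16382 values per member, and all libraries share the same pool. These values were computed with all columns as deposited, and not again with any column turned in sign.

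**Figure D5:**
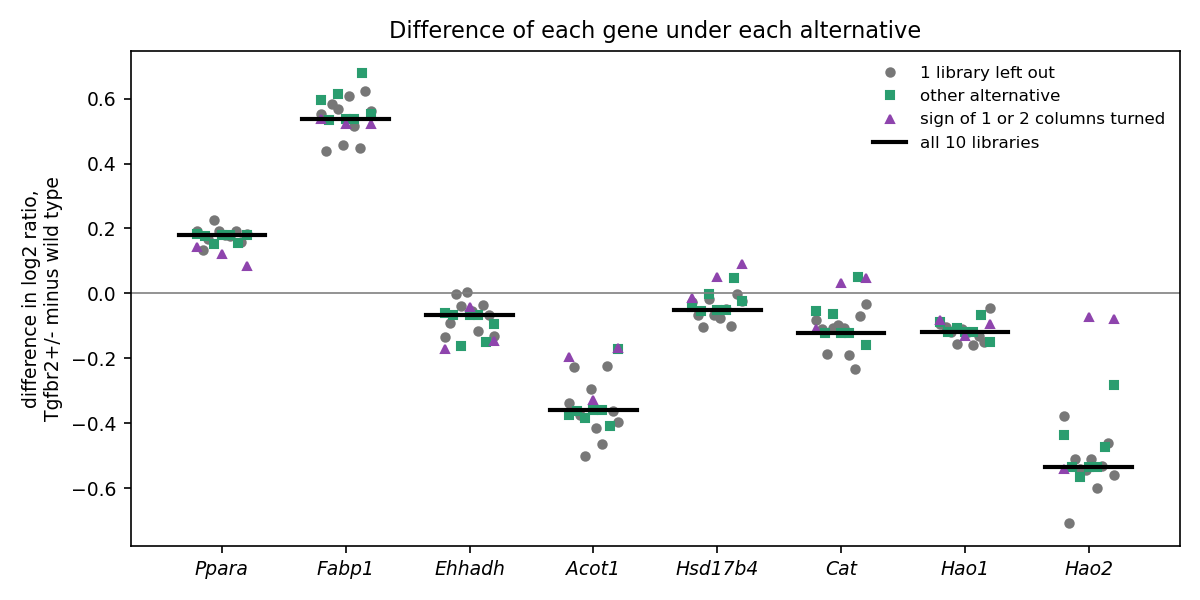
Difference in log2 ratio, Tgfbr2+/- minus wild type (y axis), of each of the 8 genes with all 10 libraries (black bar), with 1 library left out (circles), with the sign of 1 or 2 columns turned (triangles) and under the other alternatives (squares). Fabp1 and Ppara stay above 0 and Acot1, Hao1 and Hao2 below it throughout, while Hao2 comes to -0.07 with Tgfbr2+/- replicate 5 turned.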

How the data were processed

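Liver total RNA of 10 mice was hybridised against the wild-type pool, Cy3 in the first channel and Cy5 in the second, with dye swaps in the design, per the labels. The deposited values are ratios on a log scale, taken as log10 because 8 of 234380 values sit at exactly 2 or -2. Normalization, background correction and scanner software are not given in the sources used here. Column medians of the deposited log10 ratios were 0.0013 to 0.0047. Values were multiplied by 3.32 to log2, and the 17726 probes with 1 symbol (of 23438) averaged to 16383 genes. The table used holds no signal over background, and the number of arrays limits the precision.

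Groups came from the titles. All genes were fitted with limma 3.58.1 (lmFit, eBayes, two-sided) in R 4.3.3 with Benjamini-Hochberg adjustment and a threshold of 0.05. On data simulated for the difference between the groups over 16383 genes it called 90% of 50 genes changed by 0.5 and 98% of those changed by 1. It also called 9 unchanged genes. The simulated noise was normal and independent for each gene, with no effect shared by a library and no column of doubted direction. In the real data 107 genes differed by more than 0.5 and 0 passed, so these shares do not give the power here. Pairs of members were tested over all 17280 within-group orders. A group against the pool leaves out the pool's own spread. Members and lists were chosen with earlier results of these data known. Named were the members, the 2 highest and 2 lowest differences per pathway list, and the 3 genes most like Hao2, Ehhadh and Fabp1. Other genes were named after their values were seen.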

Additional observations from a re-analysis of the deposited data

How the results depend on the processing

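With 1 library left out, 0 to 10 genes passed between the groups (10 without Tgfbr2+/- replicate 3), 0 to 48 in heterozygous liver against the pool and 0 to 1 in wild type. Against the pool the heterozygous count of 2 became 1 with wild-type replicate 1 turned in sign, 0 with Tgfbr2+/- replicate 5 or both turned, 1 under quantile normalization, 10 with array weights and 1 with probes tested singly. The alternative without the 3 doubted libraries, chosen after seeing the data, passed 1 gene in wild type. With both columns turned the medians were 0.019 for peroxins, -0.0008 for other PPAR-alpha targets and -0.008 for glyoxylate and peroxide enzymes, and the last was 0.012 with Tgfbr2+/- replicate 5 turned. The causes were not tested.

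The labels' replicate numbers were not taken as pairs: same-numbered libraries correlated at 0.0072 to 0.30, and 2 of 4 wild-type libraries were most like their own number. With a replicate block 0 genes passed, the glyoxylate and peroxide median was 0.0014, and the differences of Hsd17b4 (0.05) and Cat (0.05) became positive. No other member changed sign with it. The number of correlated pairs past the threshold stayed at 0 under all 5 alternatives run for it. Of the 19 alternatives run for the list medians, those not named here moved no median of the 5 pathway lists by more than the spread between libraries.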
